A study of Rattus norvegicus with 11 samples.

Results

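The 9 genes described here make or serve the major histocompatibility complex (MHC) class II molecule of the rat, which is called RT1 in this species. They were RT1-Ba, RT1-Bb, RT1-Da, RT1-Db1, RT1-DMa, RT1-DMb, RT1-DOb, Cd74 and Ciita, 9 of the 24481 genes with a read count. The choice was made by name for their function, by a rule that uses no measured value, though with earlier results of these data known. The files place the 7 RT1 members on chromosome 20, Cd74 on chromosome 18 and Ciita on chromosome 10. All 9 were detected in each of 11 ileum libraries and all 9 passed the filter on low counts in every comparison. The ileum of SD rats, 6 to 8 weeks of age and male according to the methods of the study, was the source of 3 control, 4 SAP and 4 JZL184 libraries, made from total RNA as stranded mRNA libraries. SAP is severe acute pancreatitis, which was induced by driving 3% sodium taurocholate backwards into the pancreatic duct. JZL184 inhibits monoacylglycerol lipase (MAGL), the enzyme that breaks down the endocannabinoid 2-AG, and the JZL184 rats had the same surgery and got 10 mg/kg into the peritoneum 24 h later. The control and SAP rats were given vehicle by that route, and the tissue was taken 24 h after the injection in all 3 groups. The labels call the control treatment a control plasmid and title the SAP libraries as oil, and they do not say whether the control rats were operated.

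Some libraries stood apart from the rest of their group. Total counts lay between 26341299 and 33847135 reads per library. The counts of control libraries 1 and 2 lay close to counting noise from each other (a chi-square per gene of 2.81, against 77.48 to 563 in other pairs within a group), and they were counted as 1 sample, so that n was 2 for control, 4 for SAP and 4 for JZL184. SAP library 2 held 20 reads on Y-linked genes and 7826 on Xist, where the other libraries held at least 1222 and at most 56, so this library did not match the male rats of the methods. SAP libraries 1 and 2 had relatively more reads on long genes (0.33 and 0.35 log2 units per doubling of length, against -0.21 to 0.09 in the other samples). The labels name an intestinal epithelial cell as the cell type, but Cd4 of T cells (6.87 to 24.8 FPKM) and Acta2 of smooth muscle (82.9 to 267 FPKM) were present in every library beside Fabp2 of enterocytes (266 to 9126 FPKM), as in whole gut wall. JZL184 library 3 had the lowest Fabp2 of all libraries. Nothing in the labels says that numbered libraries of a group came from separate rats, and p-values measure the spread between libraries.

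MHC class II molecules present peptides from engulfed material to CD4 T cells. RT1-Ba with RT1-Bb, and RT1-Da with RT1-Db1, encode the alpha and beta chains of the classical molecules RT1-B and RT1-D. Cd74, the invariant chain, fills the groove of the new molecule and guides it to endosomes, where RT1-DMa and RT1-DMb form the DM dimer that exchanges the last piece of the invariant chain for peptide. RT1-DOb is the beta chain of DO, an inhibitor of DM that is best known from B cells. Ciita is the class II transactivator, which binds no DNA itself and acts through the RFX, CREB and NF-Y factors on the X and Y boxes of class II promoters. In the gut, dendritic cells, macrophages and B cells carry class II molecules at all times, and enterocytes are known to gain them under interferon gamma.

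Letters of the X and Y boxes were found as a pair in front of 5 of the 9 members. RefSeq windows of 300 bases, from 250 before to 50 after the start of a gene (rat build GRCr8), were at hand for 7 of the 9 members, and the letters ACNGATG for the X box and TGATTGG for the Y box were searched on both strands. These letters were chosen after the windows had been read, so the number of class II loci with the pair depends on that choice and is no test of enrichment. ACNGATG was followed by TGATTGG, with no overlap and with at most 45 bases from start to start, in 0.0598% of 33469 windows. Of the 18 genes with that pair, 6 were class II loci, namely RT1-Bb, RT1-Da, RT1-Db1, RT1-DMa and RT1-DOb among the members and RT1-Db2 beside them. The single motifs were common, since ACNGATG was in 10.2% and TGATTGG in 7.06% of all windows. A match is a description of letters and not a shown binding site. The sequences below run 5′ to 3′ on the strand of the gene, with the X and Y box letters in capitals, and are shown because they are the shared feature through which Ciita is known to act. They lie at chr20:4604167-4604216 (minus strand) for RT1-Bb, chr20:4515328-4515378 (plus) for RT1-Da, chr20:4560230-4560279 (minus) for RT1-Db1, chr20:4541700-4541748 (minus) for RT1-Db2, chr20:4712387-4712437 (minus) for RT1-DMa, chr20:4627594-4627641 (minus) for RT1-DOb and chr20:4576979-4577026 (plus) for RT1-Ba.
RT1-Bb: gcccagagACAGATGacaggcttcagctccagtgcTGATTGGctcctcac
RT1-Da: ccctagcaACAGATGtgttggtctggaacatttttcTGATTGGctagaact
RT1-Db1: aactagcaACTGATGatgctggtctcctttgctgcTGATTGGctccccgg
RT1-Db2: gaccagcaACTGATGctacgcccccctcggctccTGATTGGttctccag
RT1-DMa: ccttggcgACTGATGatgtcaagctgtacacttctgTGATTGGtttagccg
RT1-DOb: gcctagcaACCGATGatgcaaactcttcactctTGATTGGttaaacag
RT1-Ba: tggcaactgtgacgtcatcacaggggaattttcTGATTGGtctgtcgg

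The spacing of the boxes was narrow. From the start of ACNGATG to the start of TGATTGG there were 25 bases in RT1-DOb, 26 in RT1-Db2, 27 in RT1-Bb and RT1-Db1, and 28 in RT1-Da and RT1-DMa. The Y box letters of these genes began between position -119 in RT1-Db2 and position -51 in RT1-Da, counted from the gene start. RT1-Ba held TGATTGG at position -45 without the pair, and Cd74 held no TGATTGG. The loci RT1-DOa and RT1-Ha, which are not among the 9, held TGATTGG without the pair at positions -109 and -114. Whether these genes held ACNGATG outside a pair was not recorded.

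**Figure D1:**
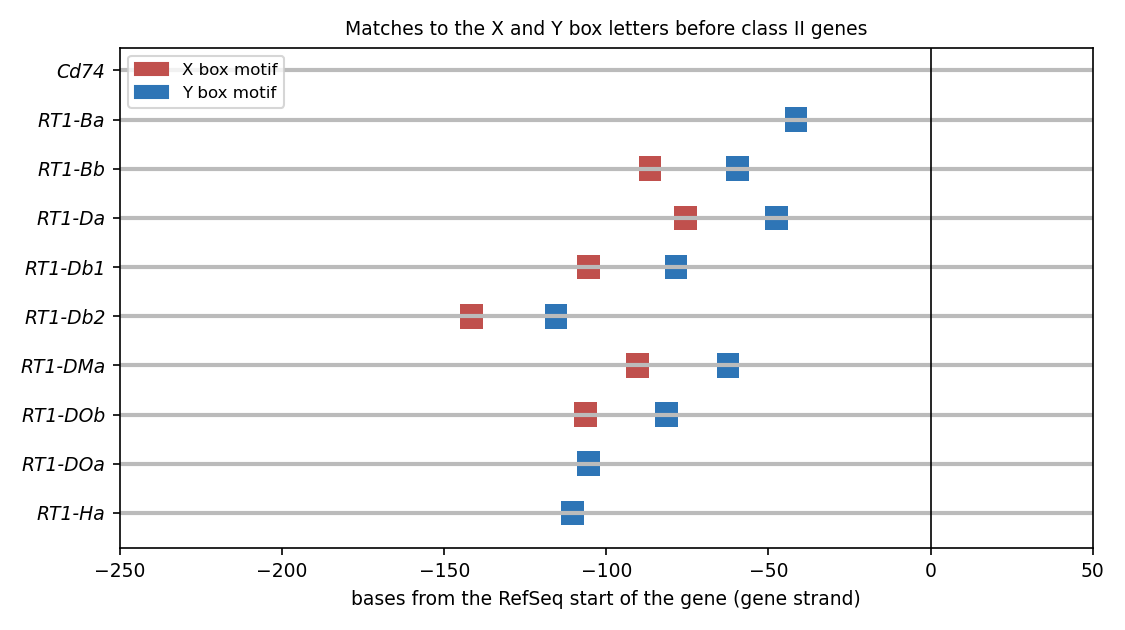
Positions of the X box letters (red) and Y box letters (blue) in the windows of 10 class II genes, in bases from the RefSeq start of each gene. Red is drawn only where the letters form the pair with blue. Grey lines are the 300 bases searched, and 6 loci show the red and blue marks 25 to 28 bases apart.

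Cd74 was the most abundant of the 9 genes, and Ciita the least. By the mean FPKM over 10 samples, which is normalized for transcript length, Cd74 ranked 62 of 24127 gene symbols, with 635.97 FPKM in its lowest and 2412 FPKM in its highest library. The 4 classical chains followed with means of 360.1 (RT1-Bb), 323 (RT1-Ba), 273 (RT1-Db1) and 256 FPKM (RT1-Da). RT1-DMa (45.7 FPKM) and RT1-DMb (33.4 FPKM) were lower than the classical chains in every library, and RT1-DOb (3.31 FPKM) and Ciita (2.64 FPKM) had the lowest means. Reads were plentiful for the classical chains (4229 to 30401 per gene and library) and few for RT1-DOb (53 to 299) and Ciita (119 to 1139).

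For each of the 4 classical chains, the range within the SAP group and within the JZL184 group was wider than the distance between any 2 group means. RT1-Ba was at 276, 279 and 470.3 FPKM in the 3 control libraries, at 233, 258, 197 and 489.9 FPKM in the 4 SAP libraries, and at 120.3, 437, 148 and 597 FPKM in the 4 JZL184 libraries. Its partner RT1-Bb read 377, 365 and 562 FPKM in control, 249, 307, 259.8 and 607 FPKM in SAP, and 150.25, 319, 120.2 and 656 FPKM in JZL184. The groups overlapped for both chains of RT1-B, with SAP library 4 and JZL184 library 4 at the top of their groups.

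RT1-Da was at 222, 233 and 388 FPKM in control, 203, 263, 246 and 374 FPKM in SAP, and 129, 231, 115 and 384 FPKM in JZL184. For RT1-Db1 the values were 270.25, 269 and 471 FPKM in control, 142, 431, 233 and 370.3 FPKM in SAP, and 109, 234, 123 and 352 FPKM in JZL184. The summed level of the 4 chains lay between 1145 and 1891 FPKM in control, 828 and 1841 FPKM in SAP, and 506 and 1989 FPKM in JZL184, and the JZL184 range was wider than that of control on both sides. Bulk RNA cannot tell fewer class II cells from less class II RNA per cell.

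Cd74 ran with the classical chains. Its level was 1729, 1701 and 2284 FPKM in control, 802, 915 and 1605 FPKM in SAP libraries 1 to 3 and 2412 FPKM in SAP library 4, and 636, 2126, 748 and 2358 FPKM in JZL184. Within JZL184, libraries 1 and 3 lay below libraries 2 and 4 for 7 of the 9 members, the exceptions being RT1-DOb and Ciita. The enterocyte genes Fabp6 (410 and 79.9 against 9000 and 6883 FPKM) and Slc10a2 (9.24 and 4.24 against 34.9 and 104 FPKM) split these libraries the same way. Fabp2 did not (8101 and 266 against 5888 and 5907 FPKM), nor did Anpep and Vil1. The part of tissue composition in the class II values was not tested. JZL184 library 4 was the highest of its group for the 7 members named first, and control library 3 was the highest control library for all 9 members.

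**Figure D2:**
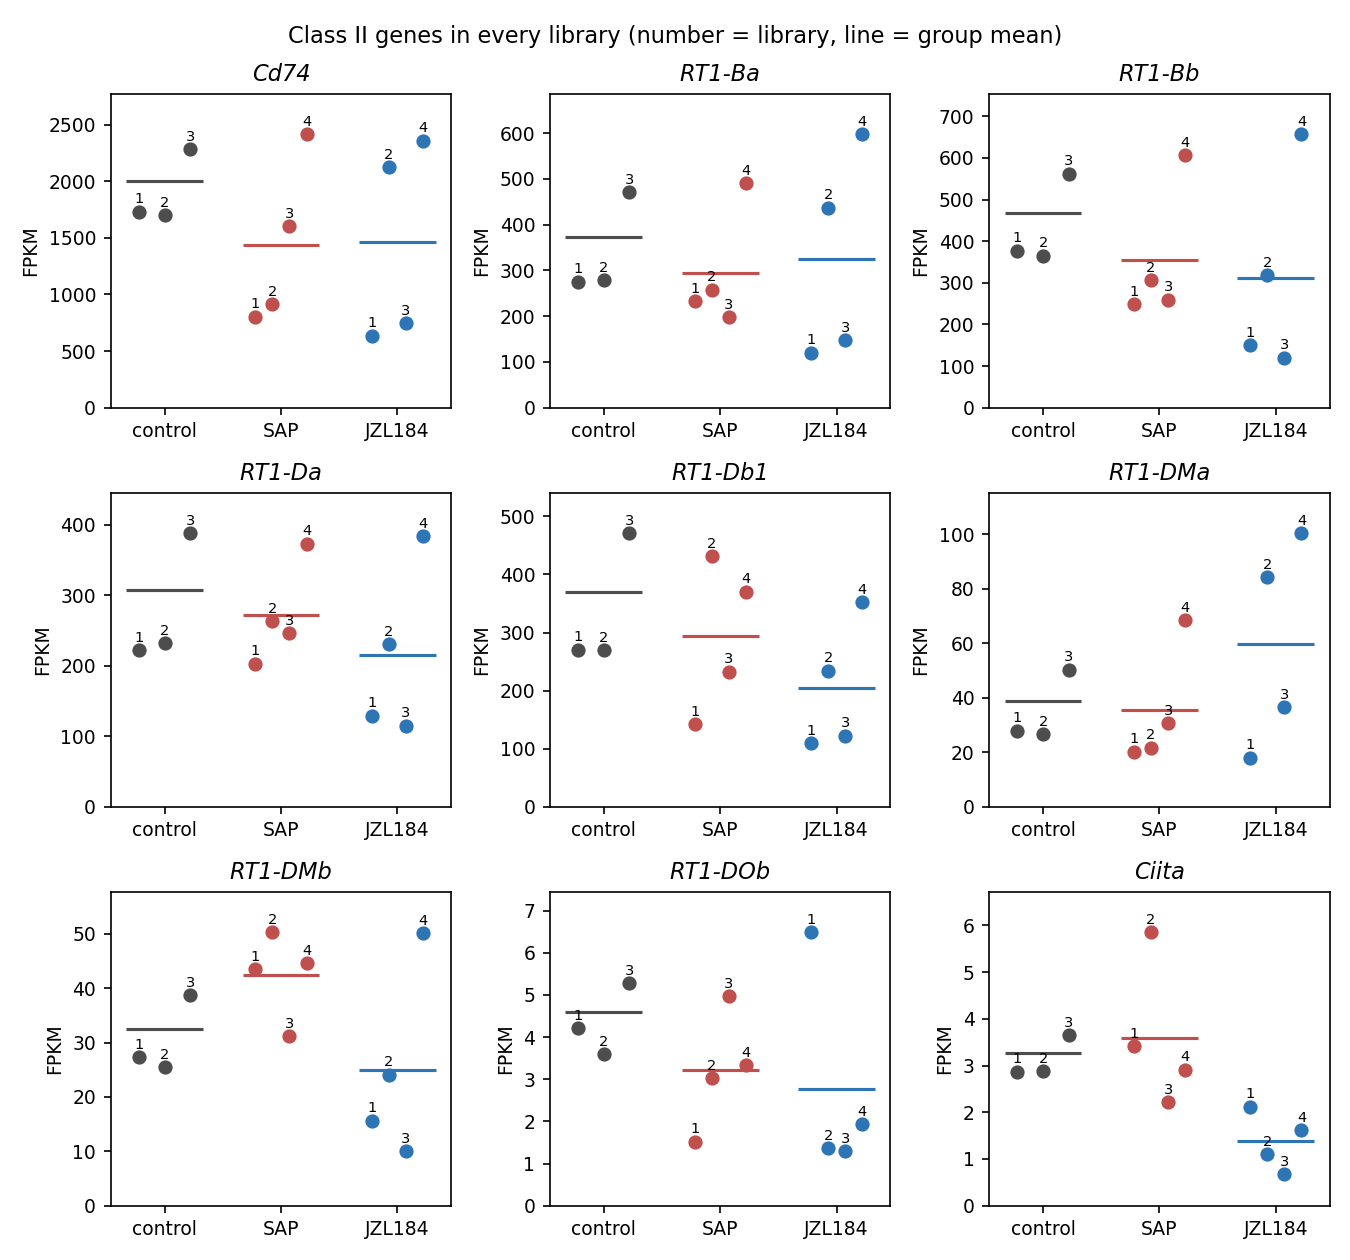
FPKM of each class II gene in every library (y axis from 0, different for each gene) by group, with the library number above each point and a line at the group mean, for which control libraries 1 and 2 were averaged. Cd74 and the classical chains overlap between the groups, and all 4 JZL184 libraries of Ciita, at 0.67 to 2.12 FPKM, lie below all SAP and control libraries.

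By group mean, the control group was the highest for 6 of the 9 members. RT1-Bb had 467 ± 135 FPKM (SD, n = 2) in control, 356 ± 170 FPKM (SD, n = 4) in SAP and 311 ± 246 FPKM (SD, n = 4) in JZL184. Cd74 had 2000 ± 402, 1434 ± 743 and 1467 ± 901 FPKM in the same order and with the same n. RT1-Ba, RT1-Da, RT1-Db1 and RT1-DOb were also highest in control, RT1-DMa was highest in JZL184, and RT1-DMb and Ciita were highest in SAP. Apart from the step down to JZL184 in Ciita, no neighbouring pair of groups in these orders was free of overlap.

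The question put to SAP against control was whether pancreatitis had changed the class II genes of the ileum, and none of the 9 passed the test. Calls were made with edgeR's quasi-likelihood test, at a fold change above 2 or below 0.5 and a p below 0.05 after Benjamini-Hochberg adjustment. In that comparison 0 of 16029 genes were called (0%), 9.09% had an unadjusted p below 0.05, and DESeq2 called 1.23% and none of the members. No member had an unadjusted p below 0.05 here, and none was free of overlap between the groups, as 23.2% of all genes were. The log2 fold changes of the members were all below 0 except that of RT1-DMb, with a median of -0.47 against 0.06 over all genes tested, and they lay between -0.66 for RT1-DOb (SE 0.48, edgeR adjusted p = 0.51) and 0.22 for RT1-DMb (SE 0.31, edgeR adjusted p = 0.712). That median was -0.17 with offsets for gene length and -0.14 without SAP libraries 1 and 2. For Cd74 the log2 fold change was -0.60 (SE 0.53, edgeR adjusted p = 0.57).

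JZL184 against SAP asked what the inhibitor changed in rats with pancreatitis, and again 0 of 9 members were called, against 0% of 15308 genes in edgeR and 6.98% in DESeq2. Ciita was the only member with an unadjusted p below 0.05, where 21.3% of all genes had one. The classical chains and Cd74 had log2 fold changes between -0.34 (RT1-Db1, SE 0.49) and 0.32 (RT1-Ba, SE 0.58), and the median of the 9 members was -0.12 against -0.05 over all genes. Standard errors between 0.40 (Ciita) and 0.63 (RT1-DMa) are as large as most of these values, which therefore do not show that a level stayed the same. RT1-DMa had the highest estimate, at 0.91 (SE 0.63, edgeR adjusted p = 0.401).

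JZL184 against control compared treated rats with pancreatitis with rats without it. None of the 9 members was called and Ciita alone had an unadjusted p below 0.05 (26.3% of all genes had), where edgeR called 2.16% of 15916 genes and DESeq2 10.8%. Only RT1-DMa had a log2 fold change above 0 (0.66, SE 0.68), and the median of the members was -0.51 against 0.08 over all genes tested. RT1-Db1 was at -0.84 (SE 0.53, edgeR adjusted p = 0.337) and RT1-Da at -0.51 (SE 0.53, edgeR adjusted p = 0.569). The comparisons share samples, since the control libraries serve 2 of them, as do the SAP and the JZL184 libraries.

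**Figure D3:**
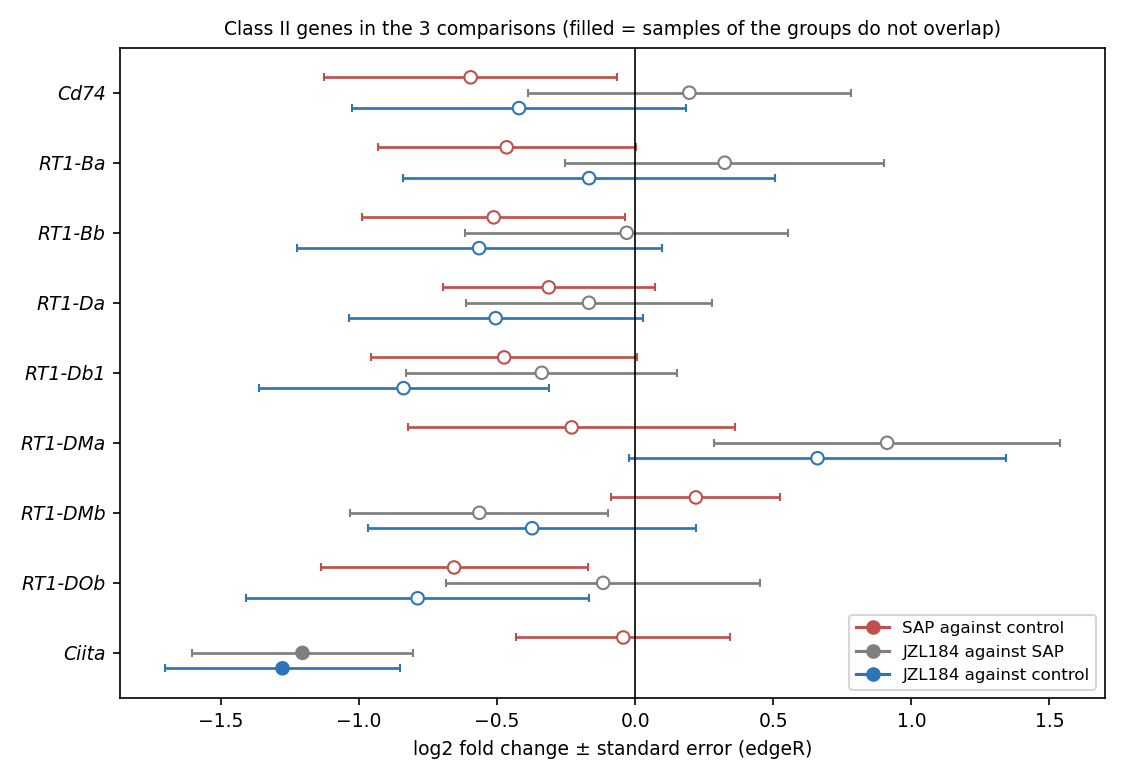
Log2 fold changes of the 9 class II genes by edgeR (x axis) with standard errors as bars, in SAP against control (red), JZL184 against SAP (grey) and JZL184 against control (blue). Filled points mark comparisons whose samples do not overlap, which are those of Ciita at -1.21 and -1.28, and no point passed the test.

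Ciita was the one member with no overlap between groups. Its level was 2.87, 2.88 and 3.65 FPKM in control, 3.41, 5.85, 2.22 and 2.91 FPKM in SAP, and 2.12, 1.10, 0.67 and 1.62 FPKM in JZL184. The highest JZL184 library lay just under the lowest SAP library, and SAP library 2 stood above all others. The group means were 3.26 ± 0.55 FPKM (SD, n = 2) in control, 3.60 ± 1.58 FPKM (SD, n = 4) in SAP and 1.38 ± 0.63 FPKM (SD, n = 4) in JZL184. Of all genes tested, 5.59% were likewise lower without overlap in JZL184 than in SAP, and 19.3% than in control.

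The test of Ciita did not pass the threshold in edgeR. The log2 fold change was -1.21 (SE 0.40, edgeR adjusted p = 0.151, DESeq2 adjusted p = 0.0602) in JZL184 against SAP and -1.28 (SE 0.43, edgeR adjusted p = 0.115, DESeq2 adjusted p = 0.0551) in JZL184 against control. In SAP against control it was -0.04 (SE 0.39). Under the alternatives run, the estimate of JZL184 against SAP lay between -1.41 and -0.86, with adjusted p between 0.0602 and 0.356, and the smallest effect was found without SAP libraries 1 and 2. Without SAP library 2 alone it was -0.92 (edgeR adjusted p = 0.328). In JZL184 against control it lay between -1.66 and -1.03, and 4 alternatives called it, among them edgeR with 3 control samples (adjusted p = 0.0374). The Ciita transcript was about 6408 bases by counts and FPKM, against 1183 to 1650 for the other members and a median of 3276 for tested genes. Once offsets for gene length were added, Ciita stood at -0.99 on the log2 scale in JZL184 against SAP (edgeR adjusted p = 0.127).

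The class II transcription genes showed mixed values and no call in edgeR. Their list holds the factors that work with Ciita on class II promoters and other regulators, among them Irf8 and Pax5. Of 12 genes of this list, all tested, 3 (Nfya, Creb1 and Irf8) had an unadjusted p below 0.05 and lay lower in JZL184 than in SAP (11.1% of all genes). Another 2 (Nfyb and Pax5) had one and lay higher (10.3%). Nfya, a subunit of NF-Y that binds the Y box, was at 8.71, 8.83, 3.83 and 2.62 FPKM in SAP and at 3.12, 0.92, 1.32 and 1.67 FPKM in JZL184. The SAP libraries 1 and 2 were far above the rest, and JZL184 library 1 reached into the SAP range. Its log2 fold change was -1.59 (SE 0.45, edgeR adjusted p = 0.117), and DESeq2 called it (adjusted p = 0.0173). Rfx5, a subunit of the RFX factor at the X box, followed the same libraries, with 2.88 and 4.0 FPKM in SAP libraries 1 and 2 and at most 1.4 FPKM in all others. Its log2 fold change was 1.75 (SE 0.85, edgeR adjusted p = 0.459) in SAP against control. Rfxank, another RFX subunit, was lower without overlap in SAP (3.60 to 8.33 FPKM) and in JZL184 (3.47 to 6.25 FPKM) than in control (8.96 to 10.02 FPKM), with log2 fold changes of -0.88 (SE 0.46, edgeR adjusted p = 0.459) and -1.07 (SE 0.34, edgeR adjusted p = 0.103).

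Other regulators of class II differed in direction. Irf8, a transcription factor of dendritic cells and macrophages, was at 63.9, 61.0, 25.5 and 22.4 FPKM in SAP and at 19.5, 19.4, 16.5 and 21.5 FPKM in JZL184, without overlap, and its log2 fold change was -0.95 (SE 0.34, edgeR adjusted p = 0.171). Pax5 of B cells had a log2 fold change of 1.28 (SE 0.44, edgeR adjusted p = 0.16) in the same comparison, and Prdm1, which represses Ciita in plasma cells, one of 1.26 (SE 0.48, edgeR adjusted p = 0.146) in JZL184 against control. Creb1, which binds class II promoters, had -0.96 (SE 0.41, edgeR adjusted p = 0.214) in JZL184 against SAP. Nfyb (0.52, SE 0.21, edgeR adjusted p = 0.203) lay higher in JZL184 while its partner Nfya lay lower.

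Interferon gamma, the best known inducer of Ciita, was itself barely expressed, with Ifng at 0.06 to 0.92 FPKM over all libraries. Socs1, a feedback inhibitor of its pathway, was at 5.51, 2.29, 2.63 and 4.63 FPKM in SAP and 9.10, 25.9, 5.31 and 31.8 FPKM in JZL184. On read counts its groups did not overlap and the log2 fold change was 2.47 (SE 0.62, edgeR adjusted p = 0.0965), called by DESeq2 (adjusted p = 0.00225). Irf1, a transcription factor induced by interferon gamma that acts on the Ciita gene, was at 24.6 to 43.7 FPKM in SAP and 19.5 to 42.5 FPKM in JZL184, with a log2 fold change of 0.07 (SE 0.28). The receptor chains Ifngr1 (0.48, SE 0.26) and Ifngr2 (0.67, SE 0.31) and the kinases Jak1 (-0.65, SE 0.48) and Jak2 (-0.01, SE 0.33) were not called in JZL184 against SAP by either tool. Of the 8 genes of the list, 7 were tested in that comparison, with none called by edgeR.

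The peptide exchange genes did not move as 1 block. RT1-DMa was at 27.9, 26.5 and 50.2 FPKM in control, 20.2, 21.7, 30.7 and 68.5 FPKM in SAP, and 17.9, 84.1, 36.5 and 100.2 FPKM in JZL184. RT1-DMb was at 27.3, 25.5 and 38.7 FPKM in control, 43.4, 50.2, 31.1 and 44.6 FPKM in SAP, and 15.6, 24.1, 10.04 and 50.05 FPKM in JZL184. These 2 genes encode the chains of 1 dimer, and yet the ratio RT1-DMb/RT1-DMa ran from 0.275 to 2.32 over the libraries. It was 2.15 and 2.32 in SAP libraries 1 and 2, 1.01 and 0.651 in SAP libraries 3 and 4, and 0.871, 0.286, 0.275 and 0.5 in JZL184. The mean log2 ratio of JZL184 minus SAP was -1.64 (0.43 ± 0.88 against -1.21 ± 0.78, SD, n = 4 each, two-sided exact permutation p = 0.0571, adjusted over 18 tests p = 0.599). Leaving out 1 sample at a time gave -1.99 to -1.38. The smallest p that 4 against 4 samples allow is 0.0286.

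RT1-DOb, of the inhibitor DO, was at 4.21, 3.60 and 5.27 FPKM in control, 1.52, 3.03, 4.97 and 3.33 FPKM in SAP, and 6.48, 1.37, 1.3 and 1.93 FPKM in JZL184. JZL184 library 1 was the highest of all libraries, and the other JZL184 libraries were below all control libraries. The same library had the highest levels of the B cell genes Ms4a1 (18.4 FPKM, against 2.35 to 9.04 in the others) and Cr2 (21.4 FPKM), and also of RT1-DOa, the alpha chain of DO, among the JZL184 libraries (3.49 FPKM, against 0.74 to 1.95). Not all genes of the B cell list peaked in that library. Cd79a was at 61.5 FPKM there, against 62.7 FPKM in control library 2, and Cd79b at 17.4 FPKM, against 21.6 FPKM in control library 1. Cd37 and Bank1 were also higher in another library, and the rest of the list was highest in JZL184 library 1. Whether B cells account for the RT1-DOb value was not tested. The log2 fold change of RT1-DOb in JZL184 against control was -0.79 (SE 0.62, edgeR adjusted p = 0.444), and without JZL184 library 1 it was -1.57 and was called (edgeR adjusted p = 0.0358). RT1-DOa was at 2.57 to 3.55 FPKM in the control libraries and 0.87 to 2.94 FPKM in SAP, with a log2 fold change of -1.06 (SE 0.56, edgeR adjusted p = 0.459).

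RT1-Db1 has a close copy, RT1-Db2, and only uniquely aligned reads were counted, so the share of reads given to each is uncertain. RT1-Db2 was at 50.7, 51.1 and 77.9 FPKM in control, 18.8, 7.29, 25.3 and 62.4 FPKM in SAP, and 10.2, 42.4, 12.9 and 62.3 FPKM in JZL184. In SAP library 2 just 2.11% of the reads on these 2 genes fell on RT1-Db2 (Wilson 95% interval 1.91 to 2.33%, counting error only), where the other libraries had 10.7 to 19.5%. This was the library with the highest RT1-Db1 of its group and with few Y-linked reads. The rats were of an outbred stock and reads were aligned to a single reference genome with at most 4 mismatches, and the part of RT1 alleles in this value was not tested. With the reads of both genes summed, the log2 fold change was -0.25 in JZL184 against SAP and -0.86 in JZL184 against control, close to those of RT1-Db1 alone (-0.34 and -0.84). Without SAP library 2, RT1-Db1 alone had -0.16 in JZL184 against SAP.

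**Figure D4:**
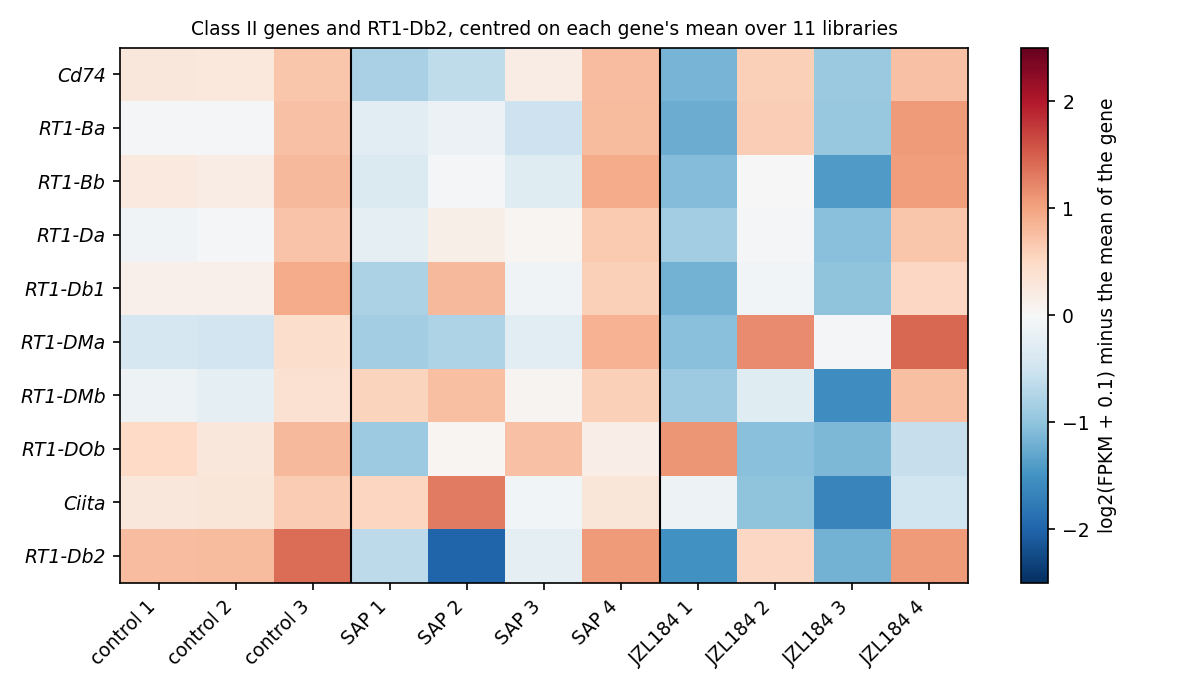
Log2(FPKM + 0.1) of the 9 class II genes and RT1-Db2 in the 11 libraries, centred on each gene's mean (colour, red above and blue below). JZL184 libraries 1 and 3 are blue for Cd74 and the classical chains, RT1-DOb is red in JZL184 library 1, and RT1-Db2 is darkest blue in SAP library 2, at 7.29 FPKM.

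Ratios between the chains of RT1-B and of RT1-D were steadier than their levels. RT1-Bb/RT1-Ba lay between 1.19 and 1.37 in control and between 1.07 and 1.32 in SAP, while JZL184 libraries 2 and 3 were at 0.729 and 0.812. RT1-Db1/RT1-Da lay between 0.845 and 1.07 in JZL184, below control at 1.16 to 1.22 without overlap, and between 0.7 and 1.64 in SAP. Its mean log2 difference of JZL184 against control was -0.33 (two-sided exact permutation p = 0.133, adjusted p = 0.599), where 2 against 4 samples cannot go below 0.0667.

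Cd74/RT1-Da was at 3.95 and 3.48 in SAP libraries 1 and 2 and at 4.93 to 9.21 elsewhere. Ciita/Cd74 was 0.0016 to 0.00169 in control but ran from 0.00121 to 0.0064 in SAP and from 0.000518 to 0.00333 in JZL184, so Ciita and Cd74 did not keep 1 proportion. None of the 18 tests of 6 ratios in 3 comparisons passed after adjustment, with the lowest adjusted p at 0.599. With so few samples no outcome of these tests could have passed, so they do not show that a ratio stayed the same.

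**Figure D5:**
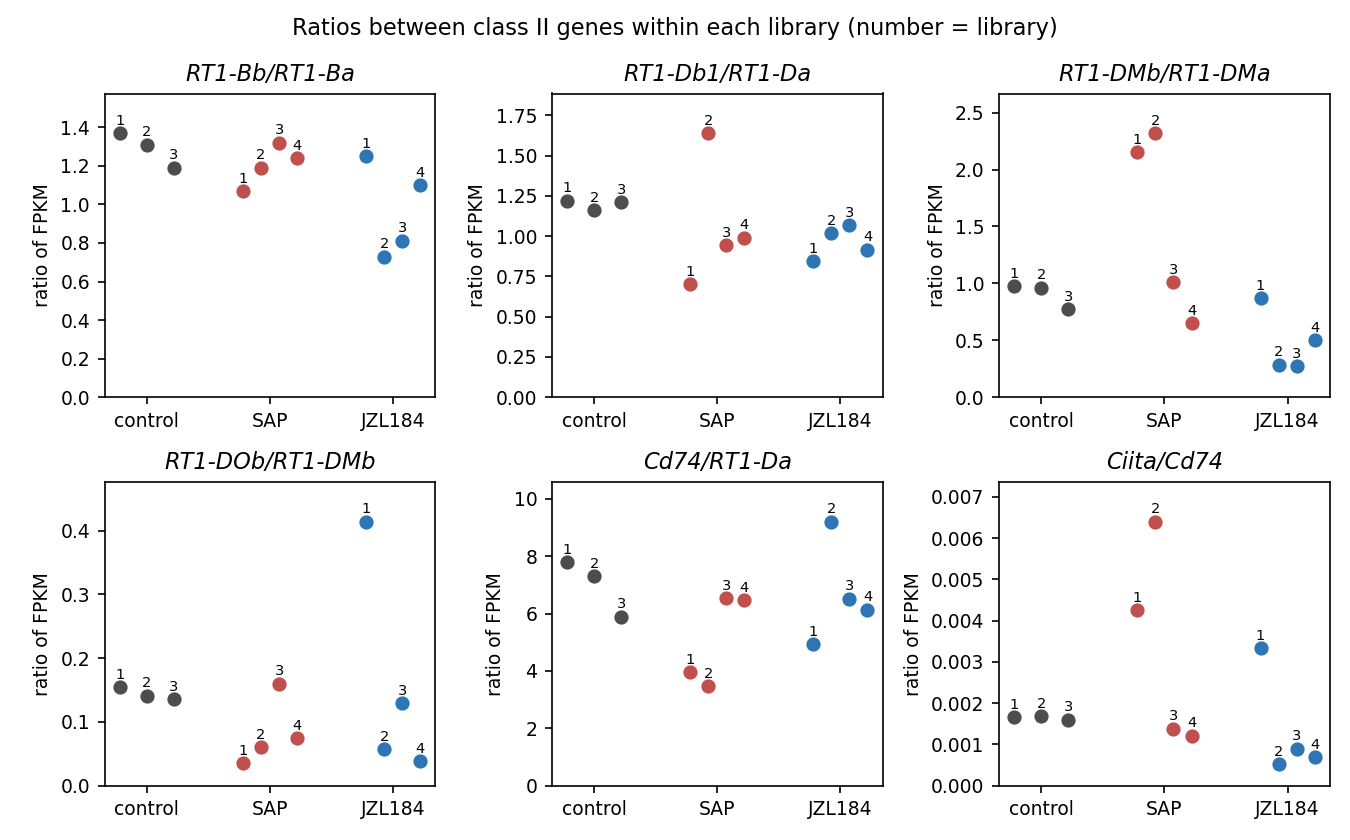
Ratios of FPKM between class II genes within each library (y axis from 0, different for each ratio) by group, with library numbers. RT1-DMb/RT1-DMa is at 2.15 and 2.32 in SAP libraries 1 and 2 and under 1 in all JZL184 libraries, and RT1-DOb/RT1-DMb is highest in JZL184 library 1, at 0.414.

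Around the class II genes, 11 of 12 tested genes for processing and turnover had log2 fold changes above 0 in JZL184 against SAP, with a median of 0.30. Of a list on costimulation, which also holds inhibitory ligands, 6 of 6 tested genes had a log2 fold change above 0, with a median of 1.05. Of all 15308 genes tested, 7256 had one above 0. Just 1 of the 12 processing and turnover genes, Lgmn, had an unadjusted edgeR p below 0.05 there, where 10.3% of all genes had one and lay higher. Of the processing and turnover genes none was called by edgeR, and 3 had an unadjusted p below 0.05 and lay higher in JZL184 than in control (13.8% of all genes did so). Lgmn, a lysosomal protease that cuts the invariant chain, was at 43.4 to 52.0 FPKM in control, 87.8 to 101.5 FPKM in SAP and 90.1 to 155.9 FPKM in JZL184. On the log2 scale it stood 1.42 above control in JZL184 (SE 0.38, edgeR adjusted p = 0.0786), which DESeq2 called (adjusted p = 0.0145). Marchf1, a ubiquitin ligase that removes class II molecules from the surface, had a log2 fold change of 1.05 (SE 0.37, edgeR adjusted p = 0.124) there.

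Costimulation is the second signal that a T cell needs beside class II and peptide. The list also holds Cd274 and Pdcd1lg2, ligands that inhibit T cells, so its counts do not describe costimulation alone. Of 6 tested genes of this list, 4 had an unadjusted p below 0.05 and lay higher in JZL184 than in SAP, where 10.3% of all genes did. Among these 4 was Cd274, with a log2 fold change of 0.98 (SE 0.36, edgeR adjusted p = 0.178). None of the list was called by edgeR. Cd80, a ligand of CD28 on T cells, was at 0.35, 0.36, 0.47 and 0.64 FPKM in SAP and 1.11, 1.71, 1.45 and 0.82 FPKM in JZL184, with a log2 fold change of 1.63 (SE 0.40, edgeR adjusted p = 0.0939, DESeq2 adjusted p = 0.00389). Cd40, the receptor through which helper T cells act on these cells, had a log2 fold change of 1.89 (SE 0.54, edgeR adjusted p = 0.122, DESeq2 adjusted p = 0.0139).

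In the class I pathway, which presents peptides from inside the cell, 1 of 13 genes was called in JZL184 against control, where 2.16% of all genes were, and 0 of 13 in each of the other comparisons. Psmb9, a subunit of the immunoproteasome, was at 197, 194 and 253 FPKM in control, 70.8, 62.5, 130.3 and 195.7 FPKM in SAP, and 72.3, 80.4, 74.7 and 56.5 FPKM in JZL184, and it fell in JZL184 against control (log2 fold change -1.68, SE 0.27, edgeR adjusted p = 0.0265). Calls in this comparison rested on both control samples, since 1 gene in all was called without control library 3 and 0 without the sample of control libraries 1 and 2. Psmb8 (-0.86, SE 0.31) and Tap2 (-0.72, SE 0.28) also lay lower without overlap there, with edgeR adjusted p of 0.133 and 0.153. Of the 13 genes, 12 had a log2 fold change below 0 and the median was -0.41. Nlrc5, the class I counterpart of Ciita, had a log2 fold change of -0.62 (SE 0.36, edgeR adjusted p = 0.322) in JZL184 against SAP.

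Markers of the cells that carry class II molecules differed from each other, and their part in the class II values was not tested. The summed level of 12 dendritic cell genes was 67.5 to 108 FPKM in control, 45.3 to 88.9 in SAP and 41.7 to 61.1 in JZL184. Batf3 was the most abundant of them in every library, at 40.6 to 71.6 FPKM in control, 23.4 to 44.9 in SAP and 14.2 to 24.4 in JZL184. Within that list, Clec9a and Xcr1, the markers of cross-presenting dendritic cells, were low everywhere (Xcr1 at most 0.33 FPKM) and lowest in JZL184. Clec9a had a log2 fold change of -3.24 (SE 0.46, edgeR adjusted p = 0.0604, DESeq2 adjusted p = 1.61e-07) in JZL184 against SAP, and Xcr1 one of -2.92 (SE 0.58, edgeR adjusted p = 0.0851). Batf3, a factor these cells need, had -1.64 (SE 0.35, edgeR adjusted p = 0.0526) in JZL184 against control. Other genes of the list had the opposite direction, and 4 of the 11 tested in JZL184 against SAP had a log2 fold change above 0. Fscn1, an actin bundling protein of mature dendritic cells, was at 2.19, 2.23, 3.84 and 2.22 FPKM in SAP and at 3.98, 5.92, 5.74 and 4.64 FPKM in JZL184, without overlap. Its log2 fold change was 1.12 (SE 0.32, edgeR adjusted p = 0.118, DESeq2 adjusted p = 0.0249), and DESeq2 called it. Ccr7 (1.09, SE 0.60), Cd83 (0.38, SE 0.39) and Clec10a (0.09, SE 0.56) were not called by either tool.

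Macrophage genes split. Cd163 and Mrc1, scavenger and mannose receptors, rose in JZL184 against control (log2 fold changes 2.99, SE 0.55, and 2.34, SE 0.46, edgeR adjusted p = 0.0398 and 0.0454), whereas Csf1r, the receptor of the macrophage growth factor, was at -1.42 (SE 0.33, edgeR adjusted p = 0.0631). Cd163 and Mrc1 already lay above control in SAP without overlap (2.9911, SE 0.62622, and 2.4972, SE 0.49511). DESeq2 called both there (adjusted p = 0.000114 and 0.000176) and edgeR did not (adjusted p = 0.403 and 0.387). In JZL184 against SAP they overlapped, at 0.034529 (SE 0.49038) and -0.12532 (SE 0.34631). The 12 macrophage genes summed to 1510 to 1650 FPKM in control, 872 to 2580 in SAP and 572 to 1400 in JZL184. Lyz2 was the most abundant of them in every library, at 989 to 1204 FPKM in control, 643 to 2191 in SAP and 197 to 1120 in JZL184. The sum therefore mainly follows Lyz2. The 12 B cell genes summed to 102 to 120 FPKM in control, 19.2 to 94.6 in SAP and 60.8 to 156 in JZL184, and none was called. Jchain of plasma cells fell in JZL184 against control (-2.14, SE 0.37, edgeR adjusted p = 0.035), and Cd4 of T cells had a log2 fold change of -1.22 (SE 0.27, edgeR adjusted p = 0.0586).

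Il22, made by group 3 innate lymphoid cells and T cells, was at 0.06 to 0.23 FPKM in control, 0.17 to 1.29 in SAP and 1.22 to 18.5 in JZL184, and it rose against control (log2 fold change 6.04, SE 1.22, edgeR adjusted p = 0.0476). Cxcl13, which draws B cells into follicles, also rose in JZL184 against control (log2 fold change 1.77, SE 0.36, edgeR adjusted p = 0.0476). The 11 enterocyte genes summed to 44700 to 45900 FPKM in control, 12200 to 27700 in SAP and 6660 to 23300 in JZL184. Not every gene of that list was lower, since Cdh1, the adhesion protein E-cadherin, was at 105 to 118 FPKM in control, 132 to 166 in SAP and 151 to 194 in JZL184. The 6 neutrophil genes summed to 0.9 to 2.27 FPKM in control, 8.63 to 82.3 in SAP and 12.6 to 248 in JZL184. S100a8 and S100a9 were the most abundant of them in every SAP and JZL184 library, so the sum mainly follows these genes. In JZL184 against SAP, 3 of the 5 tested neutrophil genes had a log2 fold change above 0. Csf3r (-0.77, SE 0.55) and Mmp8 (-1.19, SE 0.87) lay below 0, and none was called by either tool. The 6 smooth muscle genes summed to 1870 to 2070 FPKM in control, 801 to 2020 in SAP and 367 to 2120 in JZL184, with overlap between the groups.

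The members themselves followed 1 common profile to different degrees. The profile was the mean of centred log2(FPKM + 0.1) of RT1-Ba, RT1-Bb, RT1-Da, RT1-Db1 and Cd74 over 10 samples, with the gene in question left out where it was one of them. Pearson r with it was 0.967 for RT1-Bb, 0.96 for RT1-Da, 0.925 for RT1-Ba, 0.87 for Cd74 and 0.853 for RT1-Db1. It was 0.752 for RT1-DMb and 0.708 for RT1-DMa, 0.332 for Ciita and 0.0783 for RT1-DOb. Samples of 1 group share their treatment, and these values are descriptions. Neither Ciita nor RT1-DOb ranked the samples as the classical chains did.

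Among 11080 other genes with a mean of at least 1 FPKM, the 10 most like this profile had r between 0.823 and 0.898. They were Ano2, a chloride channel (r = 0.898, Spearman's rho = 0.83), Nostrin (0.873), LOC366763 (0.861), Gstm5 (0.849), Tmigd1 (0.843), Ptprr (0.839), Arhgap18 (0.834), Pla2g2a (0.828), Limk2 (0.826) and the class II locus RT1-Ha (0.823, at 0.45 to 2.74 FPKM). Pla2g2a, a secreted phospholipase of Paneth cells, was abundant at 502 to 2476 FPKM, and Tmigd1, an adhesion protein of enterocytes, at 113 to 1431 FPKM. These 10 genes had the highest of 11080 values of r over 10 samples, and whether chance alone gives values this high was not tested.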

How the data were processed

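Reads were trimmed by the authors (FASTX-Toolkit 0.0.13) and aligned to mRatBN7.2 (HISAT2). The deposited tables hold, for each gene, the count of uniquely aligned reads without normalization and FPKM, which the authors normalized for transcript length and library size. Which tool counted, and on which annotation, is not given in the sources used here.

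Members and gene lists were chosen with earlier results of these data known. Counts of control libraries 1 and 2 were summed and their FPKM averaged, after their counts had been compared. Pairs of groups were compared with edgeR 4.0.16 (quasi-likelihood test, TMM, minimum count 10, R 4.3.3), called at an adjusted p below 0.05 and a fold above 2 or below 0.5. Alternatives were DESeq2 1.42.0, limma-voom 3.58.1 with sample quality weights, other size factors, no filter, no fold threshold, all groups in 1 fit, offsets for gene length, a replicate block, 3 control samples, no SAP libraries 1 and 2, and leaving out each sample. The tests were tested on simulated data. Ratios of FPKM + 0.1 were compared by exact permutation, with 1 added and with log2 CPM beside it. Depth is given with the results, and intervals cover counting error only. Python 3.11.15 drew the plots.

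All members are named in every comparison, as are the tested genes of the lists of class II loci, class II transcription and interferon gamma signaling, the 3 smallest p of other lists, and the 10 genes most like the class II profile. Other genes (Fabp2, Ms4a1, Cr2 and Xist among them) were named after their values were seen or as markers. Promoter windows came from RefSeq (GRCr8) and were matched by symbol. Some genes of these lists are not reported here.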

Additional observations from a re-analysis of the deposited data

Results flagged for a closer look

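Among 30 sets of 4 values (the FPKM of 9 members and 6 ratios in the SAP and the JZL184 group), 2 held a library whose gap to the nearest other exceeded Dixon's 95% limit, where chance gives about 1 in 20. RT1-DOb was at 6.48 FPKM in JZL184 library 1, with the other JZL184 libraries at 1.3 to 1.93 FPKM. That library also had the highest Ms4a1 and Cr2, but not the highest Cd79a, Cd79b, Cd37 or Bank1. Whether B cells account for the RT1-DOb value was not tested. RT1-Bb was at 607.3 FPKM in SAP library 4, with the other SAP libraries at 249 to 307 FPKM, and RT1-Ba (489.9 FPKM) was also the highest of the group there.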

How the results depend on the processing

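Of 480 log2 fold changes of the members under alternatives, 442 kept direction and side of the threshold, 33 changed sign and 5 passed the threshold where they had not, and no member was called under any alternative in SAP against control or JZL184 against SAP. In JZL184 against control, 1 member was called with limma-voom, with 3 control samples in edgeR and in DESeq2 (chosen after seeing the data), with the replicate block plus gene length offsets (each time Ciita), and without JZL184 library 1 (RT1-DOb), so leaving out 1 sample gave 0 to 1.

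Signs changed in SAP against control for RT1-Da (0.037 with the replicate block and length offsets), RT1-DMa (0.33 without SAP libraries 1 and 2) and Ciita (0.0091 in edgeR and 0.0019 in DESeq2 with 3 control samples). In JZL184 against SAP they changed for RT1-Bb (0.37), RT1-Da (0.13) and RT1-Db1 (0.072) with limma-voom, for RT1-Ba (-0.10) and Cd74 (-0.032) with the replicate block and length offsets, and for Cd74 (-0.36) without SAP libraries 1 and 2. In JZL184 against control RT1-Ba was at 0.017 with limma-voom. Leaving out 1 sample gave ranges that cross 0 in SAP against control for RT1-Da (-0.60 to 0.037), RT1-DMa (-0.87 to 0.19) and Ciita (-0.32 to 0.10), in JZL184 against SAP for RT1-Ba (-0.12 to 0.78), RT1-Bb (-0.68 to 0.46), RT1-Da (-0.60 to 0.10), RT1-DOb (-0.88 to 0.18) and Cd74 (-0.11 to 0.65), and in JZL184 against control for RT1-Ba (-0.61 to 0.18). Of the ratios, 6 of 156 values changed sign, all on leaving out 1 sample, within ranges of -0.16 to 0.0063 for RT1-Bb/RT1-Ba in SAP against control, -0.27 to 0.14 for RT1-Db1/RT1-Da and -0.070 to 1.05 for RT1-DOb/RT1-DMb in JZL184 against SAP, and -0.21 to 0.15 for Cd74/RT1-Da and -1.05 to 0.072 for RT1-DOb/RT1-DMb in JZL184 against control. The causes were not tested.

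Over all genes, the count of calls moved widely. In SAP against control it was 0, and 14 without the filter, 208 with DESeq2, 14 with limma-voom, 4 with all groups in 1 fit, 1 with the replicate block, 7 with the block and length offsets, 33 with 3 control samples in edgeR and 1434 in DESeq2, 74 without SAP libraries 1 and 2, and 0 to 3 on leaving out 1 sample. In JZL184 against SAP it was 0, and 27 without the filter, 1283 with DESeq2, 699 with limma-voom, 207 with all groups in 1 fit, 22 with length offsets, and 0 to 655 on leaving out 1 sample. In JZL184 against control it was 343, and 929 without the filter, 1899 with DESeq2, 2906 with limma-voom, 1488 with the block, 1323 with the block and length offsets, 2800 with 3 control samples in edgeR and 3498 in DESeq2, and 0 to 1867 on leaving out 1 sample. Replicate numbers did not pair the samples, since deviations of same-numbered SAP and JZL184 libraries correlated at 0.123, -0.449, -0.00624 and -0.0983, and the block changed no other call of a member. With a minimum of 5 FPKM, 6 of the 10 genes most like the class II profile remained among the first 10, since the other 4 have lower means. For the control arm, a lone sample left by omission was assumed to vary like the other group. Reads limited RT1-DOb and Ciita more than the other members.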
